A study of Homo sapiens with 6 samples.

Results

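The genes described here make, sense and move cholesterol: 32 genes of the sterol pathway, chosen by name, out of 27852 gene symbols in the deposited table. They comprise 8 genes of the mevalonate pathway, 12 of squalene and the later sterol steps, 5 of sterol sensing, and 7 of the liver X receptor response, efflux, storage, transfer and uptake control. RNA came from HSC3, HSC4 and SAS, which are human oral squamous carcinoma cell lines. Each was grown in HPLM, a medium composed to resemble human plasma, and in DMEM, a standard culture medium, and the study set the first against the second. Both media carried heat-inactivated fetal bovine serum and an antibiotic-antimycotic mix, so every culture held serum. There was 1 library for each line and medium, 6 in all. Hence the 3 lines stand in for replicates of a medium, and within a line a difference between media has no replicate check.

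Cells build cholesterol from acetyl-CoA through mevalonate, isoprenoid diphosphates, squalene and lanosterol. When sterols in the endoplasmic reticulum are scarce, the escort protein SCAP carries the membrane-bound factors SREBP-1 and SREBP-2 to the Golgi, where they are cut and released to induce the genes of synthesis and uptake. When sterols are plentiful, INSIG proteins hold SCAP back, and oxysterols activate the liver X receptors, which induce genes of cholesterol export and of reduced uptake.

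Promoters were inspected because SREBPs act at their targets through sterol regulatory elements, often beside sites of NF-Y and Sp1. RefSeq (GRCh38.p14) gave windows for 28 of the 32 genes, 39 windows in all, and the 250 bases before each start were searched on both strands. The letters TCACNCCAC, a core of the sterol regulatory element with 1 open base, were in 1 window of these genes, that of SREBF2, and in 0.883% of all 35116 windows. With a further base open, as TCACNCNAC, which includes the first, 3 of the 39 windows matched (7.69%), against 2.02% of all windows. CCAAT, the core of the NF-Y site, was in 22 windows (56.4%, from 20 genes), against 32% of all. GGGCGG, the GC box that Sp1 binds, was in 33 windows (84.6%, from 26 genes), against 42.6% of all. The set of all windows was not matched to these genes by level or base content, and the shares were not tested. Windows of 1 gene can overlap and count the same site more than once, as for CCAAT in SC5D and GGGCGG in INSIG2. The 3 stretches below hold the TCACNCNAC match, in capitals, with 20 bases on each side, in SREBF2, which encodes SREBP-2 (chr22:41832952-41833000, plus strand), in the farnesyl diphosphate synthase gene FDPS (chr1:155308706-155308754, plus strand) and in the sterol ketoreductase gene HSD17B7 (chr1:162790584-162790632, plus strand).
SREBF2: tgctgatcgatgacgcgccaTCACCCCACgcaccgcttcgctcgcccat
FDPS: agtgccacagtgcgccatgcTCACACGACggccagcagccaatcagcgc
HSD17B7: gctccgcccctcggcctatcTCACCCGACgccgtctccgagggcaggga

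Full windows are shown for 3 of the genes with the smallest p-values between the media. They are the sterol sensor gene INSIG1 (chr7:155297628-155297877, plus strand), MYLIP, which encodes a ubiquitin ligase for lipoprotein receptors (chr6:16128836-16129085, plus strand), and the sterol transfer gene STARD4 (chr5:111512536-111512785, minus strand). Capitals mark CCAAT and GGGCGG on either strand. INSIG1 held 1 CCAAT and 5 GGGCGG, MYLIP 2 and 3, and STARD4 2 and 1. None of these 3 windows held TCACNCNAC, which says no more than that these letters are not in these bases. LSS and CYP51A1, which had smaller p-values than STARD4, are not shown. LSS held 1 CCAAT and 6 GGGCGG, and CYP51A1 0 and 1.
INSIG1: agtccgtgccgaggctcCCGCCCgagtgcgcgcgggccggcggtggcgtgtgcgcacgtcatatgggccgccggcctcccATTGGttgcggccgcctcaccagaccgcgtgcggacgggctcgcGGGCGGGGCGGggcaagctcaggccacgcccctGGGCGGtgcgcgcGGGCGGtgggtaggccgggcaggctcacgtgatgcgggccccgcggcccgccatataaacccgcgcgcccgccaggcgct
MYLIP: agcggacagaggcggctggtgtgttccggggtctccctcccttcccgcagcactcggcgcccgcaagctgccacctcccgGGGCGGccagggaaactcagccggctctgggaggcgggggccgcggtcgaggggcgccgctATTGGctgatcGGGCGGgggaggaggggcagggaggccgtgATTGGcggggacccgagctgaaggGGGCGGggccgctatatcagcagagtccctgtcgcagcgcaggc
STARD4: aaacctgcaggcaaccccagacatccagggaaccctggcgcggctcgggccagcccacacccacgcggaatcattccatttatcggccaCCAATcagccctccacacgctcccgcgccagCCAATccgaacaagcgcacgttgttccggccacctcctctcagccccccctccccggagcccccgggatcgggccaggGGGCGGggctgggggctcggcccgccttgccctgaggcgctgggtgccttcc

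Libraries held between 17716006 and 20171713 estimated counts. All 8 markers of squamous epithelium stood at 1 CPM (counts scaled to a common library total) or more in every library, with a summed level of 1510 to 6200 CPM. Markers of leukocytes summed to at most 5.33 CPM, of endothelium to at most 2.49 CPM and of fibroblasts to at most 5.91 CPM. Of the fibroblast collagen genes, COL3A1 was at 0 throughout, but COL1A1 lay at 0.861 (SAS in DMEM) to 5.59 CPM (HSC3 in DMEM). The leukocyte genes PTPRC and CD14 lay at 1.48 to 2.3 and 0.636 to 3.12 CPM. All levels below are CPM of counts that the deposited values already correct for transcript length, so they can be set side by side between genes. GENCODE 29 places antisense genes opposite HMGCS1, IDI1, FDPS, LSS, CYP51A1, DHCR7, STARD4, SREBF2, ABCA1 and NR1H2, whose reads could be shared if strand was not used.

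FDPS, whose enzyme makes the farnesyl diphosphate from which sterols and prenyl groups branch, had the highest mean level of the 32 genes, 203 CPM. Its 6 libraries lay between 161 and 290 CPM, above every library of the next gene. SQLE, the squalene epoxidase gene, averaged 79.5 CPM, the final reductase gene DHCR7 78.5, the squalene synthase gene FDFT1 71.7, LBR 63.1 and the sterol isomerase gene EBP 61.1. The ranges of these 5 overlapped, so their order was not resolved. In all, 6 genes averaged at least 50 CPM, 23 at least 10 and 5 under 5 CPM.

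Some genes share a reaction or a role. LBR and TM7SF2 encode enzymes for the same sterol C14 reduction, and LBR is also a protein of the inner nuclear membrane. LBR lay at 55.6 to 75.3 CPM and TM7SF2 at 2.38 to 9.07 CPM, with no overlap. Of the liver X receptors, NR1H2 (LXR beta) lay at 21.9 to 46.4 CPM and NR1H3 (LXR alpha) at 4.5 to 14 CPM, again apart. SREBF2 (25.7 to 49 CPM) overlapped SREBF1 (12.4 to 32.3 CPM), the gene of SREBP-1, and INSIG2 (9.5 to 13.7 CPM) overlapped INSIG1 (5.64 to 18 CPM). The exporter genes were low: ABCA1, which loads cholesterol onto apolipoprotein A-I, averaged 0.807 CPM, and ABCG1, which passes it to HDL, 0.268 CPM. ABCA1 ran from 0.154 CPM (HSC3 in HPLM) to 1.57 CPM (HSC4 in DMEM).

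**Figure D1:**
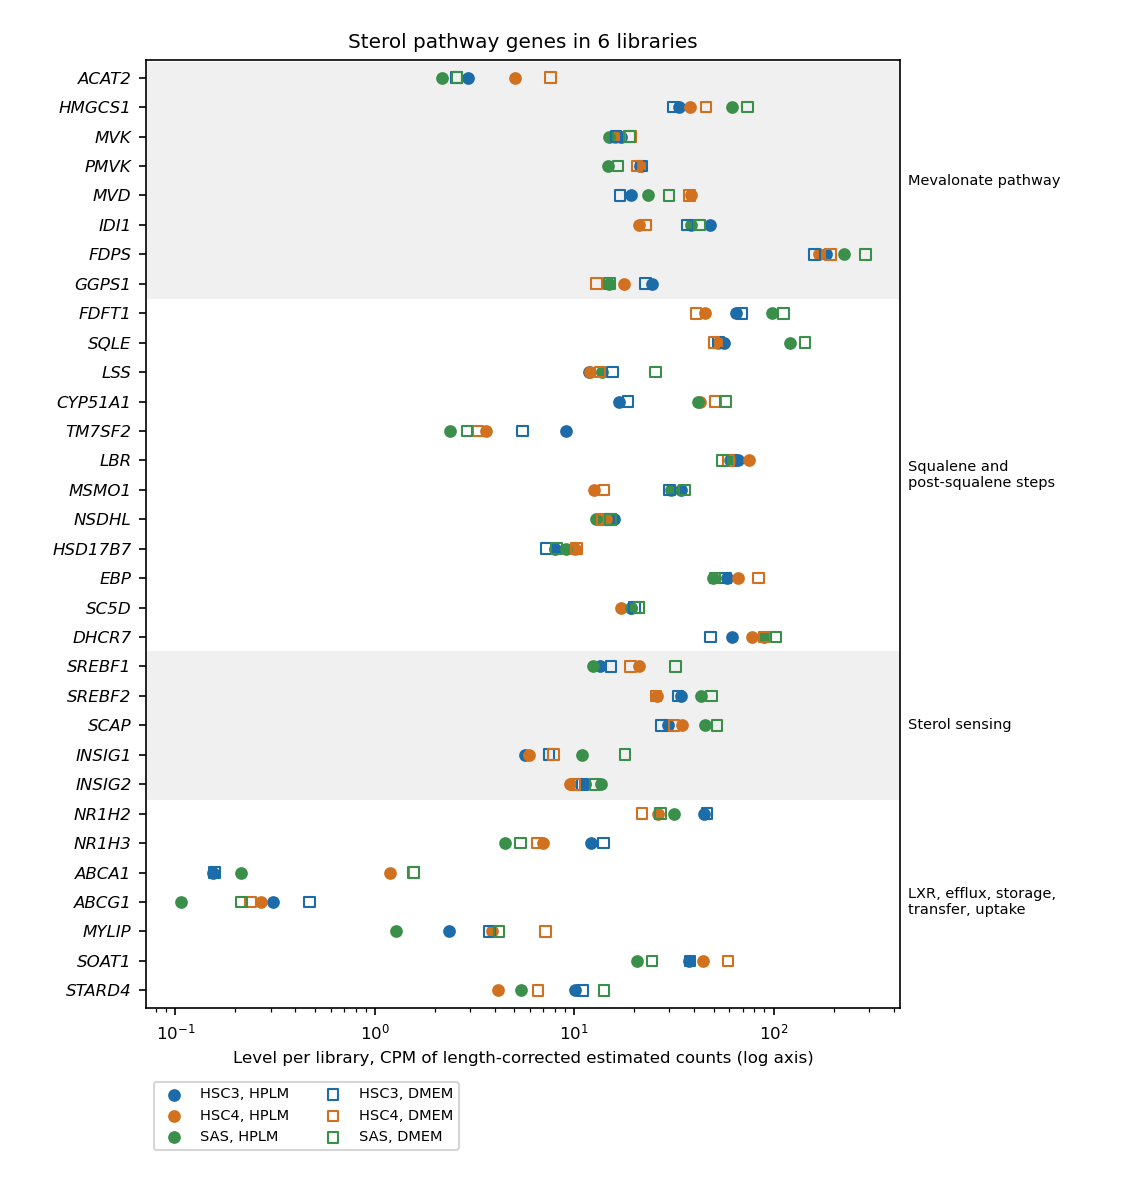
Level of each of the 32 genes in each library, in CPM of length-corrected estimated counts on a log axis; filled circles are HPLM and open squares DMEM, and colours are the lines. FDPS lies highest, between 161 and 290 CPM, and ABCA1 and ABCG1 lowest, while for most genes the points differ more by colour than by shape.

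The first comparison asked which of these genes differ between cells in HPLM and in DMEM, with the line as a block. None of the 31 genes tested was called by edgeR's quasi-likelihood test at a Benjamini-Hochberg adjusted p under 0.05, against 0.00756% of all 13236 genes (1 gene). ABCG1 was too low to be tested. DESeq2 and limma-voom also called 0 of the 31, against 0.96% and 0.068% of all genes. At an unadjusted p under 0.05 there were 5 of the 31 lower in HPLM and 0 higher, against 4.55% of all genes lower and 5.57% higher. The 5 were MYLIP, INSIG1, STARD4 and the enzyme genes LSS and CYP51A1. The median log2 fold change over the 31 was −0.06, with 23 below 0 and 8 above 0, and that of all genes was 0.00. As the tests missed the threshold, what follows gives sizes and intervals, not calls.

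**Figure D2:**
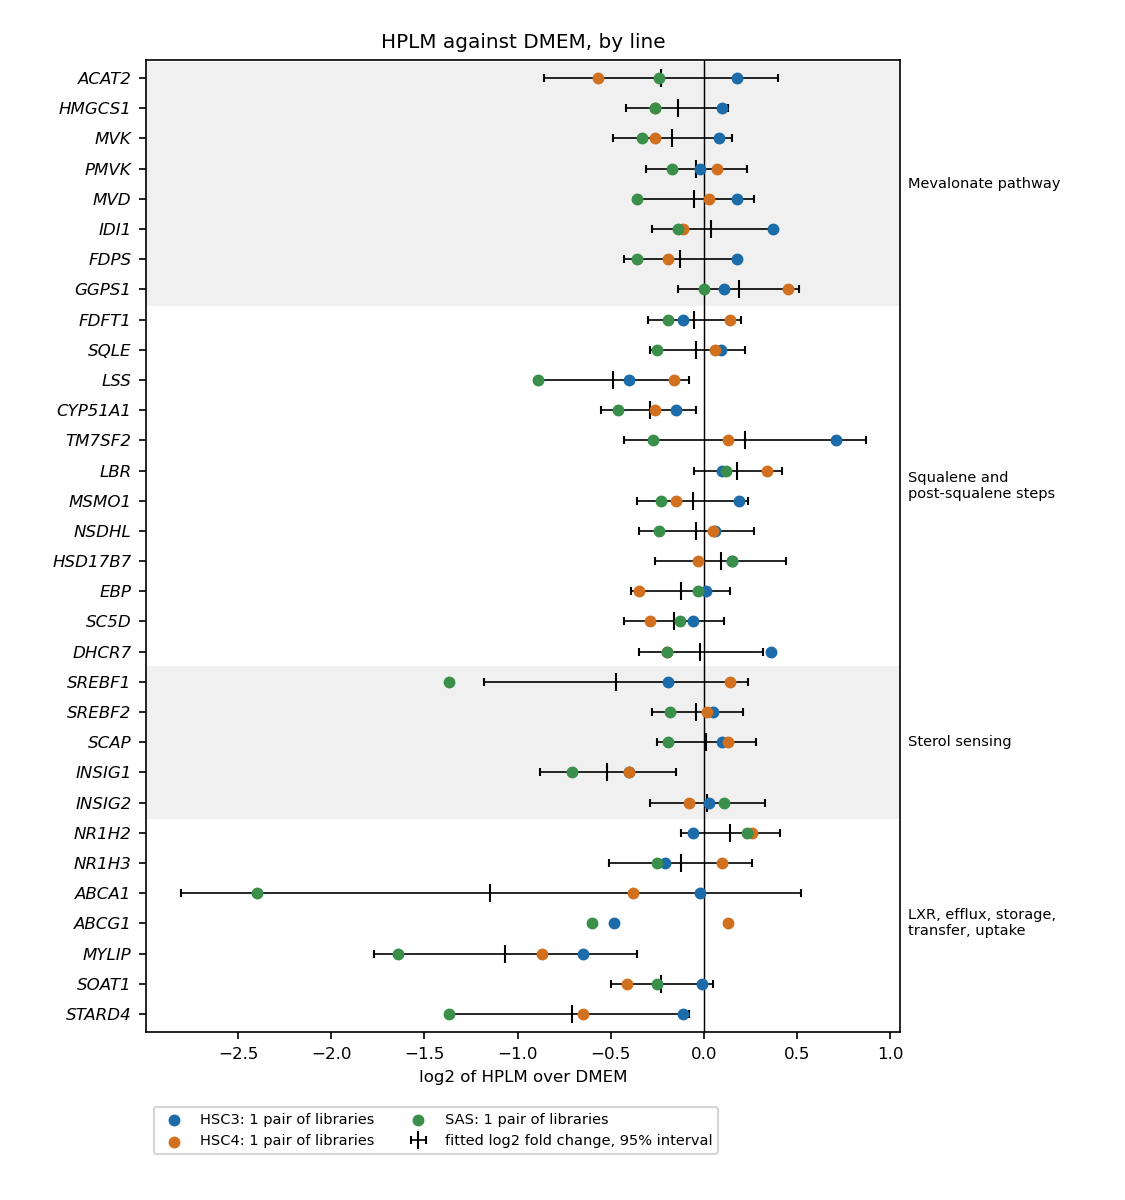
Difference of each gene between HPLM and DMEM on the log2 scale, where negative is lower in HPLM; coloured points are the ratio in 1 line (1 pair of libraries) and black bars the fitted log2 fold change with its 95% interval. Intervals of MYLIP, INSIG1, STARD4, LSS and CYP51A1 lie below 0, the SAS point is often the leftmost, and ABCG1 has no fit.

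Genes of the mevalonate pathway showed small differences of mixed direction, from −0.23 to 0.19 in log2 fold change over 8 genes. HMGCS1, the synthase that condenses acetoacetyl-CoA with acetyl-CoA, had 33.6 CPM in HPLM and 31.4 in DMEM for HSC3, 38.1 and 45.8 for HSC4, and 61.7 and 73.9 for SAS. The media overlapped, and the fitted log2 fold change was −0.14 ± 0.11 (SE, 3 lines; 95% interval −0.42 to 0.13). FDPS had 183 CPM in HPLM and 161 in DMEM for HSC3, 169 and 193 for HSC4, and 225 and 290 for SAS, for a log2 fold change of −0.13 ± 0.12 (−0.43 to 0.17), which was −0.28 without HSC3 and −0.01 without SAS. IDI1, the isomerase gene, stood at 47.8 CPM in HPLM and 37.1 in DMEM for HSC3, 21.1 and 22.8 for HSC4, and 38.5 and 42.4 for SAS. HSC3 was thus higher in HPLM for all 3 of these genes and the other lines lower.

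The remaining 5 mevalonate genes set the ends of that range, and none was called. The mevalonate kinase gene MVK had −0.17 ± 0.13, the phosphomevalonate kinase gene PMVK −0.04 ± 0.11 and the decarboxylase gene MVD −0.05 ± 0.13 (log2 fold change ± SE). ACAT2, the cytosolic acetoacetyl-CoA thiolase gene, had −0.23 ± 0.26 at 2.17 to 7.58 CPM, and ran from −0.43 without HSC3 to −0.03 without HSC4. It overlaps TCP1 and SOD2 on the opposite strand, which averaged 444 and 237 CPM, and no source used here says whether quantification used strand. GGPS1, which makes the geranylgeranyl diphosphate of protein prenylation, had 0.19 ± 0.13, and it overlaps TBCE on the same strand over 15963 bases.

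Among the 12 genes from squalene onward, the cyclase and the demethylase gene that follow squalene epoxide had the lowest log2 fold changes. LSS, the lanosterol synthase gene on chromosome 21 (46188141 to 46228824, minus strand, GENCODE 29 on GRCh38), had 11.8 CPM in HPLM and 15.6 in DMEM for HSC3, 12 and 13.5 for HSC4, and 13.8 and 25.6 for SAS. It was lower in HPLM in each line, and the media overlapped, with the HPLM library of SAS above the DMEM library of HSC4. The log2 fold change was −0.49 ± 0.17 (SE, 3 lines; interval −0.90 to −0.08; unadjusted p = 0.0255, edgeR adjusted p = 0.428), and without SAS it was −0.29. CYP51A1, the lanosterol 14-alpha-demethylase gene on chromosome 7 (92112151 to 92134803, minus strand), had 16.7 CPM in HPLM and 18.6 in DMEM for HSC3, 42.7 and 51 for HSC4, and 41.8 and 57.6 for SAS. Each line was lower in HPLM, by less than the gap between HSC3 and the others. AC000120.2, annotated as another coding gene, overlaps it on the same strand over 22645 bases. The log2 fold change was −0.29 ± 0.10 (interval −0.55 to −0.04; unadjusted p = 0.0301, edgeR adjusted p = 0.448).

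SC5D, the lathosterol desaturase gene, was the third of these 12 that was lower in every line, with 19.2 CPM in HPLM and 20 in DMEM for HSC3, 17.2 and 21.1 for HSC4, and 19.3 and 21.1 for SAS. Its media did not overlap, and its log2 fold change was −0.16 ± 0.11 (SE, edgeR adjusted p = 0.664). LBR was the single gene of the 31 tested that was higher in HPLM in all lines, with 66.2 CPM in HPLM and 61.9 in DMEM for HSC3, 75.3 and 59.6 for HSC4, and 60.4 and 55.6 for SAS. The media overlapped, and its log2 fold change was 0.18 ± 0.10 (SE, edgeR adjusted p = 0.572).

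The other 8 of the 12 had log2 fold changes of −0.12 to 0.22. SQLE, whose enzyme is rate-limiting, had −0.04 ± 0.10 and FDFT1 −0.05 ± 0.10 (SE). The methyl sterol oxidase gene MSMO1 had −0.06 ± 0.12, the dehydrogenase gene NSDHL, which removes the C4 carboxyl group, −0.04 ± 0.13, and HSD17B7, which has a near-identical pseudogene, 0.09 ± 0.14. EBP had −0.12 ± 0.11 and DHCR7 −0.02 ± 0.14. DHCR7 stood at 61.8 CPM in HPLM and 48.2 in DMEM for HSC3, but at 78.2 and 89.8 for HSC4, and 89.8 and 103 for SAS. TM7SF2 had 0.22 ± 0.27, with 9.07 CPM in HPLM and 5.49 in DMEM for HSC3, 3.62 and 3.29 for HSC4, and 2.38 and 2.9 for SAS.

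INSIG1, itself an SREBP target that anchors SCAP when sterols are plentiful, had the smallest p of the 5 sensing genes between the media. On chromosome 7 (155297776 to 155310235, plus strand), it had 5.64 CPM in HPLM and 7.48 in DMEM for HSC3, 5.94 and 7.87 for HSC4, and 11 and 18 for SAS. Means were 7.51 ± 2.99 CPM in HPLM and 11.1 ± 5.98 CPM in DMEM (SD, n = 3 each). The media overlapped, with the HPLM library of SAS above the DMEM libraries of HSC3 and HSC4. Within each line INSIG1 was lower in HPLM, at a log2 ratio of −0.40 for HSC3, −0.40 for HSC4 and −0.71 for SAS. The fitted value was −0.52 ± 0.15 (SE; interval −0.88 to −0.15; unadjusted p = 0.0131, edgeR adjusted p = 0.401).

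INSIG2, which anchors SCAP in the same way, had 0.02 ± 0.13 (SE), and SCAP 0.01 ± 0.11. SREBF2 had 34.4 CPM in HPLM and 33.2 in DMEM for HSC3, 26 and 25.7 for HSC4, and 43.2 and 49 for SAS, at a log2 fold change of −0.04 ± 0.10. SREBF1, whose transcription the liver X receptors induce, had 13.4 CPM in HPLM and 15.3 in DMEM for HSC3, 21.2 and 19.2 for HSC4, and 12.4 and 32.3 for SAS. The DMEM library of SAS stood above the other 5, and the log2 fold change of −0.47 ± 0.29 (edgeR adjusted p = 0.632) became −0.02 without SAS and −0.80 without HSC4.

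MYLIP had the smallest p of the 31 genes. It encodes IDOL, a liver X receptor target that marks lipoprotein receptors for degradation, and lies on chromosome 6 (16129125 to 16148248, plus strand). It had 2.36 CPM in HPLM and 3.76 in DMEM for HSC3, 3.88 and 7.2 for HSC4, and 1.27 and 4.2 for SAS. Each line was lower in HPLM, and the media overlapped at a single point, where the HPLM library of HSC4 passed the DMEM library of HSC3. The log2 fold change was −1.07 ± 0.29 (SE, 3 lines; interval −1.77 to −0.36; unadjusted p = 0.01, edgeR adjusted p = 0.381; DESeq2 adjusted p = 0.349). These were low levels, resting on 24 to 151 estimated counts a library.

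STARD4, whose protein carries cholesterol between membranes, differed most in SAS. It lies on chromosome 5 (111496033 to 111512590, minus strand) and had 10.1 CPM in HPLM and 11 in DMEM for HSC3, 4.15 and 6.58 for HSC4, and 5.4 and 14.1 for SAS. All lines were lower in HPLM, at a log2 ratio of −0.11 for HSC3, −0.65 for HSC4 and −1.37 for SAS. The fitted value was −0.71 ± 0.26 (SE; interval −1.35 to −0.08; unadjusted p = 0.0339, edgeR adjusted p = 0.458), and without SAS it was −0.37.

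ABCA1 was also lower in HPLM in SAS, at 0.212 CPM against 1.56 in DMEM. HSC3 had 0.154 CPM in HPLM and 0.157 in DMEM, and HSC4 1.19 and 1.57. Its fitted log2 fold change of −1.15 ± 0.68 (SE; interval −2.81 to 0.52) rested on 3 to 33 estimated counts a library; without SAS it was −0.29. ABCG1 lay between 0.106 and 0.47 CPM, from 2 to 9 estimated counts. SOAT1, the gene of the enzyme that esterifies cholesterol for storage, had 37.8 CPM in HPLM and 38.1 in DMEM for HSC3, 44.3 and 59.1 for HSC4, and 20.7 and 24.6 for SAS. Its log2 fold change was −0.23 ± 0.11 (edgeR adjusted p = 0.563). The receptor genes had 0.14 ± 0.11 (NR1H2) and −0.12 ± 0.16 (NR1H3).

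**Figure D3:**
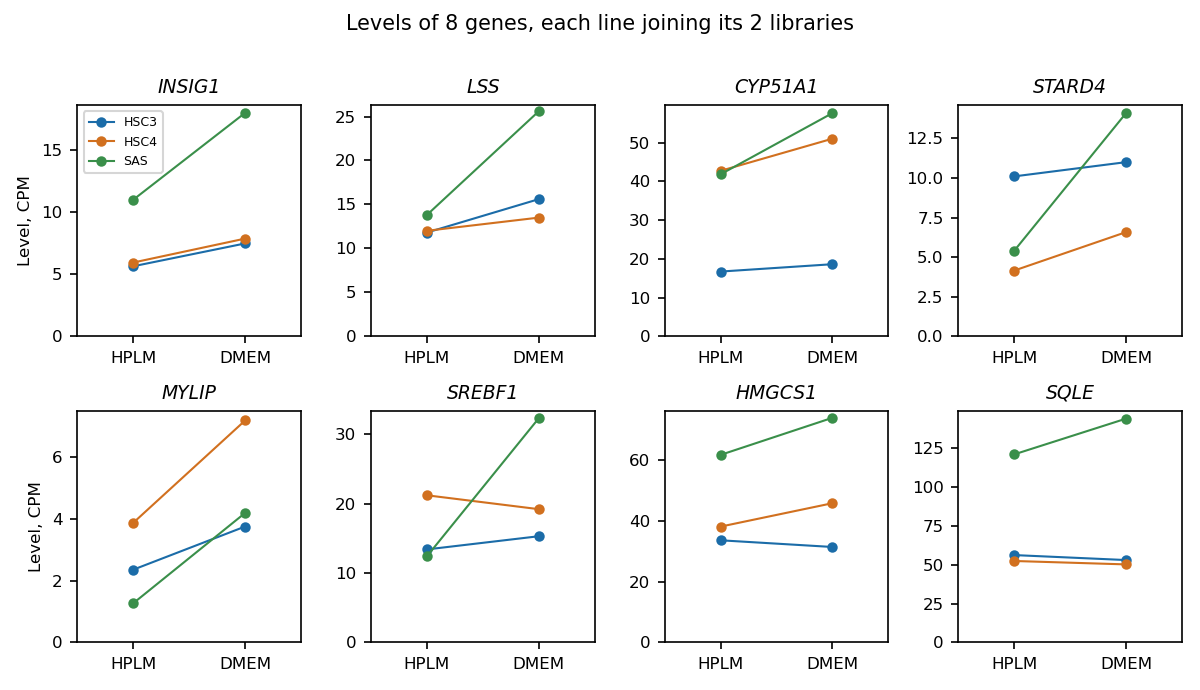
Level in CPM (each axis from 0) of 8 genes in HPLM (left point) and DMEM (right point), with the 2 libraries of a line joined. INSIG1, LSS, CYP51A1, STARD4 and MYLIP are lower in HPLM in all 3 lines, while SREBF1 differs mainly in SAS, at 12.4 CPM in HPLM and 32.3 CPM in DMEM.

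The share of genes lower in HPLM differed by line. In HSC3 13 of the 31 were lower in HPLM (49.5% of all genes), in HSC4 18 (49.6%) and in SAS 27 (50.2%), with median log2 ratios of 0.05, −0.11 and −0.24. Of the 20 enzyme genes, 15 were higher in HPLM in HSC3, and 18 were lower in SAS. Their summed level was 771 CPM in HPLM and 712 in DMEM for HSC3, 757 and 811 for HSC4, and 945 and 1120 for SAS. The ratio of HPLM over DMEM was 1.08 for HSC3, 0.933 for HSC4 and 0.842 for SAS. With 1 pair of libraries a line, the difference between lines in the response to the medium could not be tested.

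The libraries of SAS often held the extreme values. The DMEM library of SAS held the highest value of the 6 libraries for 14 of the 31 genes (17% of all genes), and the HPLM library of SAS held the lowest for 10 (18% of all). Lower by 1.5-fold or more in HPLM were 6 of the 31 in SAS (6.76% of all genes), namely LSS, SREBF1, INSIG1, ABCA1, MYLIP and STARD4, 2 in HSC4 (6.83%) and 1 in HSC3 (9.31%). MYLIP was in all 3 of these counts and STARD4 in that of HSC4. Over the 3 lines together, 8 genes were lower in HPLM in each line, against 17% of all genes, and 1 higher, against 16.9%. The 8 were LSS, CYP51A1, SC5D, INSIG1, ABCA1, MYLIP, SOAT1 and STARD4. These counts take any difference below 0, with no tolerance, and the ABCA1 value for HSC3 sets 0.154 CPM in HPLM beside 0.157 in DMEM, which are 3 estimated counts each before scaling. Without SAS the median log2 fold change was −0.01, without HSC4 −0.10 and without HSC3 −0.19.

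The second comparison set the lines against each other, with the medium as a term, so the 2 media of a line stand in for its replicates. By the edgeR test 13 of the 31 genes differed between HSC3 and HSC4 (37.4% of all genes), with 8 higher in HSC3 (18.6% of all) and 5 lower (18.8%). Between HSC3 and SAS 16 differed (39.4%), with 6 higher in HSC3 (20.6%) and 10 lower (18.8%). Between HSC4 and SAS 15 differed (41.3%), with 6 higher in HSC4 (21.3%) and 9 lower (20%). In all, 23 of the 31 differed in at least 1 pair, against 63% of all genes. Read against that background, the counts are no result particular to the pathway. Each pair of lines was refitted without each library of its own lines in turn. Below, a call that held without any 1 library held in all these fits. The counts were lower in every such fit, least so without the HPLM library of SAS. Such fits also have fewer samples, and the cause was not tested. Between HSC3 and HSC4 they were 7 without the HPLM library of HSC3, 7 without that of HSC4, 7 without the DMEM library of HSC3 and 5 without that of HSC4. Between HSC3 and SAS they were 9 without the HPLM and 8 without the DMEM library of HSC3, and 6 without the DMEM library of SAS. Between HSC4 and SAS they were 8 without the HPLM and 6 without the DMEM library of HSC4, and 6 without the DMEM library of SAS. The calls that held in every such fit were 4, 4 and 5 in these pairs.

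SQLE, FDFT1, HMGCS1 and FDPS were lower in HSC3 and in HSC4 than in SAS, while LSS was called in neither pair. SQLE had 56.2 CPM in HPLM and 53 in DMEM for HSC3, 52.4 and 50.2 for HSC4, and 121 and 144 for SAS. All 4 libraries of the other lines lay below both of SAS, at log2 fold changes of −1.28 ± 0.13 in HSC3 and −1.37 ± 0.13 in HSC4 against SAS (SE, edgeR adjusted p = 0.00146 and 0.00124), and both calls held without any 1 library. FDFT1 had 64.5 CPM in HPLM and 69.5 in DMEM for HSC3, 45.2 and 40.9 for HSC4, and 98.2 and 112 for SAS. It was lower in HSC4 than in SAS, at a log2 fold change of −1.28 ± 0.13 (adjusted p = 0.00133). It also differed in the other pairs, where the calls did not hold in every fit without 1 library. HMGCS1 had −1.05 ± 0.14 in HSC3 against SAS (adjusted p = 0.00299, held without any 1 library) and −0.69 ± 0.14 in HSC4 against SAS (adjusted p = 0.0107). FDPS had −0.57 ± 0.15 in HSC3 and −0.51 ± 0.15 in HSC4 against SAS (adjusted p = 0.0281 and 0.0387). Neither FDPS call, nor that of HMGCS1 in HSC4, held in every fit without 1 library. PMVK went the other way, higher in HSC3 (0.47 ± 0.14) and in HSC4 (0.44 ± 0.14) than in SAS. GGPS1 and TM7SF2 were called higher in HSC3 than in SAS, and ACAT2, MVD and EBP in HSC4. None of these calls held in every such fit. Of the 20 enzyme genes, 3 were called higher and 7 lower in HSC3 than in SAS (20.6% and 18.8% of all genes). HSC4 had 4 higher and 6 lower (21.3% and 20%).

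Of the 5 sensing genes, INSIG1, SCAP and SREBF2 were lower than in SAS in both HSC3 (3 genes called, against 18.8% of all genes lower) and HSC4 (3 called, against 20%), and SREBF1 and INSIG2 were not called. INSIG1 averaged 6.56 CPM for HSC3, 6.9 for HSC4 and 14.5 for SAS, at log2 fold changes of −1.12 ± 0.18 for HSC3 and −1.05 ± 0.18 for HSC4 against SAS (SE, edgeR adjusted p = 0.00571 and 0.00688). SCAP averaged 28.5 CPM for HSC3, 33.2 for HSC4 and 48.8 for SAS (−0.78 ± 0.13 and −0.56 ± 0.13 against SAS). None of the INSIG1 and SCAP calls against SAS held in every fit without 1 library. SREBF2 averaged 33.8 CPM for HSC3, 25.9 for HSC4 and 46.1 for SAS. Its difference of −0.83 ± 0.12 between HSC4 and SAS (adjusted p = 0.00428) held without any 1 library, and that of −0.45 ± 0.12 between HSC3 and SAS in none of those 4 fits.

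Other enzyme genes set HSC3 or HSC4 apart. CYP51A1 averaged 17.6 CPM for HSC3, 46.8 for HSC4 and 49.7 for SAS, lower in HSC3 at log2 fold changes of −1.41 ± 0.13 against HSC4 and −1.48 ± 0.13 against SAS (SE, edgeR adjusted p = 0.00146 and 0.00104). MSMO1, which acts in the later demethylation at C4, averaged 32.2 CPM for HSC3, 13.3 for HSC4 and 33.1 for SAS, so HSC4 was the low line (1.27 ± 0.15 for HSC3 against HSC4, −1.31 ± 0.15 for HSC4 against SAS; adjusted p = 0.00257 and 0.00219). These 4 calls held without any 1 library. IDI1 averaged 42.5 CPM for HSC3, 22 for HSC4 and 40.5 for SAS, with HSC4 again the low line. Neither IDI1 call held in every fit without 1 library. MVD averaged 18.1 CPM for HSC3, 38.2 for HSC4 and 26.6 for SAS, and its difference between HSC3 and HSC4 (−1.08 ± 0.16, adjusted p = 0.00488) held without any 1 library.

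Receptor genes were higher in HSC3 than in the other lines, and the storage gene SOAT1 was lower in SAS than in both. NR1H2 averaged 45.5 CPM for HSC3, 24 for HSC4 and 29.4 for SAS, and NR1H3 13 CPM for HSC3, 6.77 for HSC4 and 4.94 for SAS. NR1H3 was higher in HSC3 than in SAS by 1.40 ± 0.19 on the log2 scale (SE, edgeR adjusted p = 0.00349) and NR1H2 higher in HSC3 than in HSC4 by 0.93 ± 0.13 (adjusted p = 0.0043), both also without any 1 library. SOAT1 averaged 37.9 CPM for HSC3, 51.7 for HSC4 and 22.6 for SAS, higher in HSC4 than in SAS by 1.19 ± 0.14 (adjusted p = 0.00228, held without any 1 library). It was higher in HSC3 than in SAS by 0.75 ± 0.14 (adjusted p = 0.00907), and HSC3 against HSC4 was not called (−0.43 ± 0.14, adjusted p = 0.0517). The SOAT1 call for HSC3 and those of NR1H2 against SAS and NR1H3 against HSC4 did not hold in every fit without 1 library. ABCA1 was lower in HSC3 than in HSC4, at −3.14 ± 0.88 (SE, edgeR adjusted p = 0.0358), on few estimated counts. This call did not hold in the fits without 1 library. The 8 genes called in no pair were MVK, LSS, LBR, NSDHL, HSD17B7, SC5D, SREBF1 and INSIG2.

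**Figure D4:**
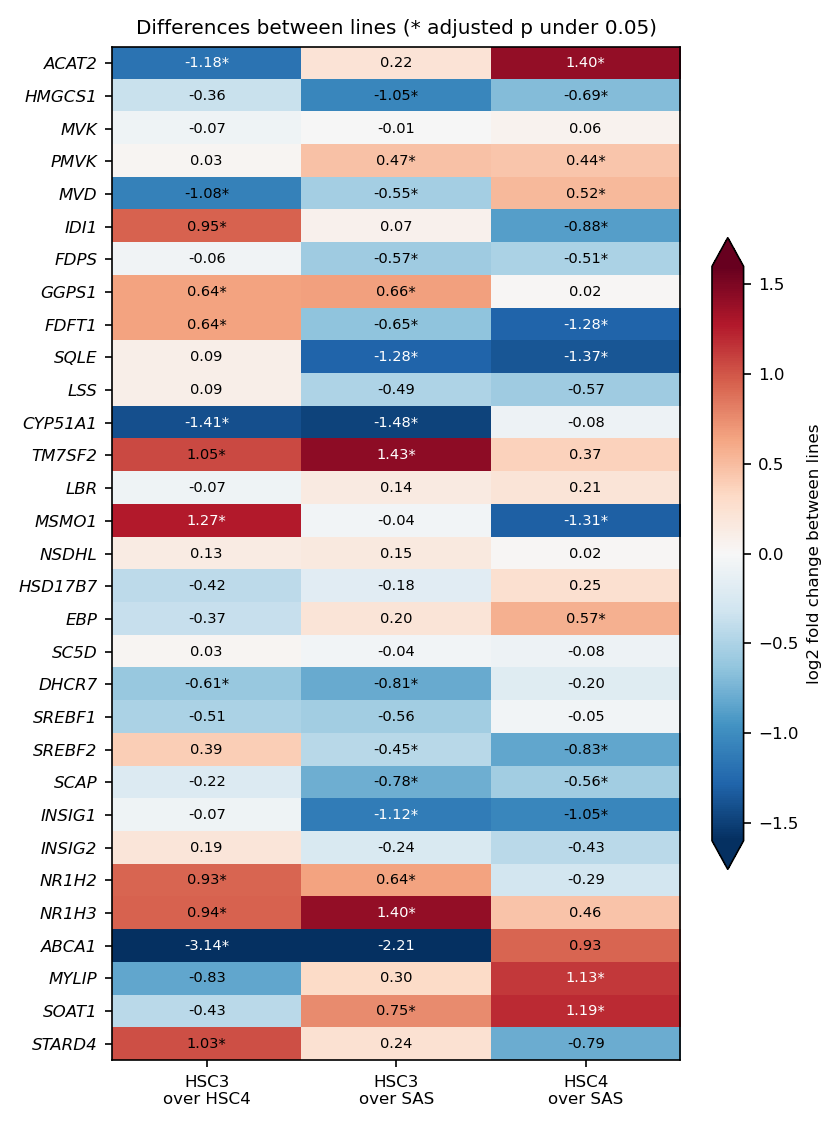
Fitted log2 fold change of each gene between lines, the first-named line over the second, written in each cell and coloured from blue (lower in the first-named line) to red (higher). Asterisks mark an edgeR adjusted p under 0.05; SQLE, FDFT1 and INSIG1 are blue in both columns over SAS, and CYP51A1 is blue in both columns of HSC3.

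The transcripts behind the sums were examined for the 5 genes with an unadjusted p under 0.05, since reads of 1 gene are divided between its transcripts by estimation. Both MYLIP transcripts were lower in HPLM in every line. The transcript ending at 16148248 had 1.32 CPM in HPLM and 2.21 in DMEM for HSC3, 1.97 and 3.26 for HSC4, and 0.571 and 2 for SAS. The most abundant INSIG1 transcript had 4.21 CPM in HPLM and 5.06 in DMEM for HSC3, 4.35 and 5.81 for HSC4, and 7.39 and 12.9 for SAS. For LSS the most abundant transcript had 7.4 CPM in HPLM and 7.65 in DMEM for HSC3, 6.2 and 8.49 for HSC4, and 7.54 and 14 for SAS. That LSS transcript differed little in HSC3, where the sum stood at 11.8 CPM in HPLM and 15.6 in DMEM. In HSC4 the second INSIG1 transcript was higher in HPLM (1.36 against 0.955 CPM), as was that of LSS (2.25 against 2.16 CPM). Both were lower in HPLM in the other lines. The transcripts of MYLIP and the most abundant of INSIG1 and LSS were lower in HPLM in every line, like their sums. So was the most abundant CYP51A1 transcript, with 12.6 CPM in HPLM and 13.2 in DMEM for HSC3, 27.4 and 32.6 for HSC4, and 32.2 and 43.8 for SAS. That of STARD4 had 5.42 CPM in HPLM and 4.56 in DMEM for HSC3, 1.9 and 2.9 for HSC4, and 3.22 and 6.99 for SAS, so in HSC3 it was higher in HPLM while the sum was lower.

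Several sums rested largely on transcripts annotated as not coding. Coding transcripts made up 39.5% to 45.9% of the EBP sum, 30.9% to 52.5% for SREBF1 and 32.2% to 56.4% for NR1H3. These levels thus overstate the coding RNA, so defined, by the deposited estimates. For NR1H3 the share was 55% in HPLM and 53% in DMEM for HSC3, and 32.2% and 46.6% for SAS. For STARD4 it was 45.4% in HPLM and 68.7% in DMEM for HSC4, but higher in HPLM in the other lines. In SREBF1 the most abundant coding transcript had 4.44 CPM in HPLM and 5.06 in DMEM for HSC3, 5.7 and 7.73 for HSC4, and 3.91 and 12.4 for SAS. It was lower in HPLM in every line, whereas the sum was higher in HPLM for HSC4, where the coding share was 30.9% in HPLM and 52.5% in DMEM. For TM7SF2 the coding share was 83% in HPLM and 47.7% in DMEM for HSC3, 97.2% and 53.2% for HSC4, and 70.5% and 42.7% for SAS, at estimated counts of 45 to 177 a library. It was higher in HPLM in each line, and was noticed after the values were seen and not tested.

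Genes around the pathway were followed in 5 further lists, and edgeR called 0 of them between the media. For SREBP processing and sterol-regulated degradation 16 symbols were listed, with both an old and a new name for some genes. The 14 genes they name were all in the table and tested. The sterol-responsive ubiquitin ligase gene RNF145 had a log2 fold change of 0.31 ± 0.11 (SE, unadjusted p = 0.0298, edgeR adjusted p = 0.448). RNF145 had 40.3 CPM in HPLM and 29.7 in DMEM for HSC3, 36.5 and 27.7 for HSC4, and 44.4 and 41.5 for SAS. It was higher in HPLM in each line, and the media overlapped, with the HPLM libraries of HSC3 and HSC4 below the DMEM library of SAS.

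Among 17 genes of sterol transport, 15 were tested and 2 had an unadjusted p under 0.05, both lower in HPLM (4.55% of all genes were lower at that p). NPC2, which hands cholesterol out of the lysosome, had 580 CPM in HPLM and 1040 in DMEM for HSC3, 348 and 459 for HSC4, and 603 and 728 for SAS. Its log2 fold change was −0.50 ± 0.13 (SE, edgeR adjusted p = 0.381), and DESeq2 called it (adjusted p = 0.017). LRP8, a receptor of the lipoprotein receptor family, had −0.67 ± 0.16 (edgeR adjusted p = 0.362), with 18.5 CPM in HPLM and 32.2 in DMEM for HSC3, 26.2 and 31.4 for HSC4, and 10.4 and 20.4 for SAS.

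The isoprenoid branches, 14 genes all tested, had 0 at an unadjusted p under 0.05. Those with the smallest p were the prenylcysteine methyltransferase gene ICMT (−0.21 ± 0.10, SE) and the dolichol kinase gene DOLK (−0.21 ± 0.10). Of 10 genes of oxysterol and sterol modification 5 were tested, again with 0. There the lipid transfer gene PLTP had 40.1 CPM in HPLM and 17.3 in DMEM for HSC3, 45.6 and 23.3 for HSC4, but 2.07 and 3.39 for SAS. In the same list SMPDL3A had a log2 fold change of −0.54 ± 0.28 (SE). Of the fatty acid genes that SREBPs also drive, 10 of 11 were tested and 3 had an unadjusted p under 0.05, all lower in HPLM (4.55% of all genes): the ketone body gene AACS (−0.35 ± 0.11), the fatty acid desaturase gene FADS2 (−0.47 ± 0.17) and the stearoyl-CoA desaturase gene SCD. SCD had 2.36 CPM in HPLM and 12.3 in DMEM for HSC3, 18.8 and 40.3 for HSC4, and 19.5 and 116 for SAS. It was the lowest of the 10, at −1.98 ± 0.30 (SE, edgeR adjusted p = 0.26), and DESeq2 called it (adjusted p = 3.58e-09).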

How the data were processed

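Poly(A) RNA of 3 oral cancer lines in HPLM and DMEM was sequenced from strand-specific libraries on a DNBSEQ instrument, per the labels' protocols. Reads were quantified with kallisto against hg38 after FastQC, per the submitters' processing notes; their versions and the annotation are not given in the sources used. The authors deposited expected counts per transcript as scaled TPM, abundances scaled up to library size, which leaves estimated counts with transcript length removed, for which no counting interval is given. The columns taken for DMEM name the line alone, with a suffix left unexplained by the labels; 0 columns of per-sample values were unused.

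The 1312 repeated rows were counted once (0.21% to 0.27% of a library), the 6878 transcripts without a symbol were left out (0.362% to 0.479%), and 152959 transcripts were summed to 27852 symbols and rounded. Positions and transcript types came from GENCODE 29, which held 95.4% of the transcripts.

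The software was edgeR 4.0.16 and DESeq2 1.42.0, with limma 3.58.1, in R 4.3.3. Genes passed filterByExpr by medium (minimum count 10, minimum total 15), libraries were scaled by TMM, and edgeR's quasi-likelihood test was fitted to all 13236 genes with line and medium as terms, on 2 residual and 4 prior degrees of freedom, with Benjamini-Hochberg adjustment and a threshold of 0.05. SE is the size of the log2 fold change divided by the root of F, and intervals are 95%. Ratios within a line use a prior count of 2. The line pairs the libraries: deviations from the medium mean correlated at 0.78, 0.79 and 0.81 within HSC3, HSC4 and SAS. Across lines they correlated at −0.43 to −0.34, but the deviations of the lines in a medium cancel out, which by itself makes these values negative. The labels do not say whether libraries came from separate cultures, so p-values measure the spread between these libraries. Members and lists were chosen with earlier results of these data known. All 32 genes are named, and from each further list the 2 tested genes with the smallest p at a mean of 1 CPM or more, of which 1 is not reported here; FADS2 was also named, with its list's count, after its values were seen. Alternatives were other scalings, no low-count filter, repeated rows included, DESeq2, limma-voom, no block and leaving out a line or library.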

Additional observations from a re-analysis of the deposited data

Results flagged for a closer look

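The summed mevalonate pathway genes went in opposite directions in 2 lines. Their summed level was 349 CPM in HPLM and 310 CPM in DMEM for HSC3, a ratio of 1.13, and 396 CPM in HPLM and 489 CPM in DMEM in SAS, a ratio of 0.81. In HSC4 the sums were 327 CPM in HPLM and 359 CPM in DMEM, a ratio of 0.909. FDPS makes up much of each sum. With 1 pair of libraries in each line the difference between the lines was not tested.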

How the results depend on the processing

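No alternative, whether another scaling, no low-count filter, repeated rows included, DESeq2, limma-voom, no replicate block or 1 line left out, called any of the sterol genes between the media, and the median log2 fold change of the tested members kept its sign throughout, from −0.19 to −0.01 with a line left out and at −0.11 without the replicate block and −0.11 with library totals only, where the median of all genes was −0.05. Over all genes, the count called between the media was 127 by DESeq2, 9 by limma-voom, 0 with upper-quartile scaling, 0 without the low-count filter, 0 without the replicate block, and 0 to 4 with a line left out; the cause was not tested. Between lines, leaving out 1 library gave 5 to 7 members called for HSC3 against HSC4, 6 to 13 for HSC3 against SAS and 6 to 12 for HSC4 against SAS, with fewer samples and the lone library assumed to vary like the others, while every other alternative stayed within 1.5 times the reported counts; without the replicate block (the medium as a term) they were 12, 16 and 14.

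Fold changes that turned sign were within 0.22 of 0 in the reported fit. With library totals only IDI1 was −0.01, SCAP −0.04 and INSIG2 −0.03, and without the replicate block SCAP was −0.02. With a line left out the ranges were −0.13 (without HSC3) to 0.13 for IDI1, −0.07 (without HSC3) to 0.44 for TM7SF2 and −0.06 to 0.12 for SCAP, which was also −0.03 without HSC3. Without SAS the top of the range was above 0 for PMVK (−0.10 to 0.02), MVD (−0.16 to 0.10), FDFT1 (−0.16 to 0.01), SQLE (−0.10 to 0.07), MSMO1 (−0.19 to 0.03), NSDHL (−0.10 to 0.05), SREBF2 (−0.08 to 0.03) and DHCR7 (−0.20 to 0.07, and 0.06 without HSC4), and INSIG2 ran from −0.03 to 0.06. Of the others, none called, those that moved by over 1.5 times with a line left out ran from −0.43 to −0.03 for ACAT2, −0.26 to −0.09 for HMGCS1, −0.29 to −0.09 for MVK, −0.28 to −0.01 for FDPS, 0.05 to 0.28 for GGPS1, −0.66 to −0.29 for LSS, 0.10 to 0.23 for LBR, 0.06 to 0.14 for HSD17B7, −0.19 to −0.02 for EBP, −0.21 to −0.10 for SC5D, −0.80 to −0.02 for SREBF1, 0.08 to 0.24 for NR1H2, −0.24 to −0.07 for NR1H3, −1.44 to −0.29 for ABCA1, −0.34 to −0.14 for SOAT1 and −1.04 to −0.37 for STARD4. Without HSC4 ABCA1 was too low to test. Fits rest on 3 lines and 2 residual degrees of freedom, and ratios at under 1 CPM rest on few counts.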
